A study of Homo sapiens with 6 samples.

Results

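Purine nucleotides are built by cells from small precursors in a pathway whose product, inosine monophosphate (IMP), is then turned into the adenine nucleotide AMP or the guanine nucleotide GMP. The 10 genes described here, *PPAT*, *GART*, *PFAS*, *PAICS*, *ADSL*, *ATIC*, *IMPDH1*, *IMPDH2*, *GMPS* and *ADSS*, encode the enzymes of IMP synthesis and of both branches. They were chosen by name from the 58735 genes of the deposited tables, and all 10 were found there and passed the filter on low counts. RNA was measured in H2452 cells, an established human line of biphasic pleural mesothelioma that the study lists with mutant *BAP1* and a homozygous deletion of *CDKN2A*, a background shared by both groups. The 3 sgCtrl libraries came from cells given a scrambled guide RNA, and the 3 sg*NF2*-1 libraries from cells given a guide RNA against *NF2*, the gene of the tumour suppressor merlin. Both guides were delivered with Cas9 by lentivirus, so each group is a population of edited cells from 1 guide and not a clone. The study describes its data in general as biological replicates, but the labels do not say that the 3 libraries of a group came from separate cultures, and the p-values measure only the spread between these libraries, which may be technical. The comparison asks which purine enzyme transcripts differ in cells given the *NF2* guide, in a study that also treated such cells with an inhibitor of IMP dehydrogenase. The study reports that cells lacking *NF2* were more resistant to this inhibitor than control cells.

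PPAT commits phosphoribosyl pyrophosphate (PRPP) to the pathway. GART, PFAS, PAICS, ADSL and ATIC then build the purine ring on it, and GART and ATIC each take a one-carbon unit from formyl folate. IMP dehydrogenase, of which IMPDH1 and IMPDH2 are isozymes, and GMPS lead from IMP to GMP, while ADSS and again ADSL lead from IMP to AMP. The pathway is known to be active in proliferating cells, and several of its genes are textbook targets of the transcription factor MYC.

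Transcripts of 6 of the 10 enzymes were higher in sg*NF2*-1 than in sgCtrl, and none was lower. The increase was largest for *IMPDH2*, *ATIC* and *GART*, smaller for *PFAS* and *IMPDH1*, and smallest for *PAICS*. The first enzyme, *PPAT*, the last enzyme of the GMP branch, *GMPS*, the AMP branch enzyme *ADSS*, and *ADSL* did not pass the test. Calls were made with edgeR's quasi-likelihood test at a Benjamini-Hochberg adjusted p under 0.05 over all 14179 tested genes, of which 17.7% were called higher and 16.6% lower. At the limits stated in the study's methods, read here as an unadjusted p below 0.05 with a log2 fold change of more than 0.5 in size, 3 of the 10 were higher (*GART*, *ATIC* and *IMPDH2*) and 0 lower, against 9.22% of all tested genes higher and 10.8% lower. Without sgCtrl replicate 1 this count was 5, with *PFAS* and *ADSL* added. The log2 fold change was above 0 for 10 of the 10 enzymes, with a median of 0.35, whereas 7052 of all tested genes were above 0, with a median of -0.0025.

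Total counts ranged from 14782423 to 17416463 per library, and a chi-square of the counts divided by its degrees of freedom lay between 5.12 and 12.5 for replicates of one group and between 40.0 and 52.6 across groups. The targeted gene, *NF2*, had 1162, 1197 and 1025 counts in sgCtrl and 692, 802 and 590 in sg*NF2*-1, a log2 fold change of -0.69 (SE 0.10, adjusted p = 7.9e-06). Mitochondrial genes took 2.65 to 3.69% of the counts in sgCtrl and 3.67 to 4.67% in sg*NF2*-1, and their part in the results below was not tested. Of 10 mesothelial marker genes, 8 were tested. *KRT7*, *MSLN* and *KRT18* were higher in sg*NF2*-1 (log2 fold changes 1.20, 0.66 and 0.28), and *PDPN*, *WT1* and *KRT19* were lower (-1.28, -1.04 and -0.94). *KRT5* and *LRRN4* had at most 5 counts in any library. Of 7 markers of other cell types, the leukocyte gene *PTPRC* had 0 counts in all libraries, and only *PECAM1* and *COL1A1* were tested, both lower in sg*NF2*-1 (-2.28 and -2.95). All 6 libraries are of 1 cultured line, so these genes do not measure an amount of other cell types here. In bulk RNA, fewer cells expressing a gene and less RNA per cell cannot be told apart.

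The stretches of genome at the start sites of *PPAT*, *PAICS* and *ATIC* are shown because *PPAT* and *PAICS*, neighbours that are read away from each other, gave different test results, and because these 3 genes hold an E-box, the letters CACGTG, which MYC binds as a dimer with MAX. The first line gives the whole 125 bases that separate *PPAT* from *PAICS* on chromosome 4 (chr4:56435616-56435740, GRCh38, plus strand), with GC boxes (GGGCGG) in capitals. The other lines give 30 bases around each E-box, in capitals, on the strand of the named gene (chr4:56435780-56435809, minus strand, chr2:215312001-215312030, plus strand, and chr2:215312076-215312105, plus strand).
PPAT to PAICS intergenic: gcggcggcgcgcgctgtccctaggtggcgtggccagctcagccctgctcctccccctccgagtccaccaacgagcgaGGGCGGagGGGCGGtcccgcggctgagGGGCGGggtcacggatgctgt
E-box PPAT -182: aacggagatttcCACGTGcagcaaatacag
E-box ATIC -46: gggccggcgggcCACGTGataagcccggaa
E-box ATIC 29: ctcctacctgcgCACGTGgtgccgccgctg

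RefSeq start windows (GRCh38.p14, 250 bases before to 50 after a start) were at hand for 8 of the 10 enzymes, all except *IMPDH2* and *ADSL*, with *ADSS* listed there as *ADSS2*. Both strands were searched. An E-box lay in windows of *PPAT*, *PAICS* and *ATIC*, that is 3 of the 8, compared with 8.77% of all genes with a window. The *PPAT* and *PAICS* windows hold 1 and the same E-box, at position -182 from the *PPAT* start and 40 from the *PAICS* start, and *ATIC* has 2, at positions -46 and 29. GC boxes were in windows of 8 of the 8 enzymes and of 48.3% of all genes. A TEAD motif (GGAATG) was found for *GART* alone (16.7% of all genes), the palindromic NRF1 motif for *PAICS* alone (6.98%), and the ATF4 motif TGATGNAA for 0 of the 8 (4.46%). A match describes the letters only. The enzymes with an E-box include the called *ATIC* and *PAICS* and the uncalled *PPAT*, and the called *GART*, *PFAS* and *IMPDH1* have none in these windows.

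*PPAT* (ENSG00000128059, chromosome 4, 56393362 to 56435615, minus strand), the committed step, had 277, 304 and 282 counts in sgCtrl and 376, 295 and 237 in sg*NF2*-1. Given as CPM, the counts scaled to a common library total after TMM correction, sgCtrl had 18.2 ± 0.565 and sg*NF2*-1 19.0 ± 2.36 (SD, n = 3 each). The groups overlapped, with sg*NF2*-1 replicate 1 the highest and replicate 3 the lowest of all 6 libraries. The log2 fold change was 0.07 (95% interval -0.19 to 0.32, adjusted p = 0.72), and without sg*NF2*-1 replicate 1 it turned to -0.023 (adjusted p = 0.92).

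*GART* (ENSG00000159131, chromosome 21, 33503931 to 33543491, minus strand) carries several activities of the pathway in a single protein. Its counts were 2700, 2806 and 2735 in sgCtrl and 4799, 4147 and 3536 in sg*NF2*-1. All sg*NF2*-1 libraries lay above all sgCtrl libraries, at 263.2 ± 13.1 CPM (SD, n = 3) against 174.2 ± 5.26 (SD, n = 3). The log2 fold change was 0.60 (SE 0.08, adjusted p = 2.0e-06). *GART* shares 275 of its 7751 exonic bases with *SON*, a gene on the opposite strand whose counts were 3419, 3986 and 2982 in sgCtrl and 3186, 2628 and 2028 in sg*NF2*-1. *SON* was lower in sg*NF2*-1 (log2 fold change -0.41, adjusted p = 0.0014), the opposite direction to *GART*.

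*PFAS* (ENSG00000178921, chromosome 17, 8247618 to 8270491, plus strand), which adds a nitrogen from glutamine, had 454, 466 and 370 counts in sgCtrl and 646, 561 and 592 in sg*NF2*-1. In CPM it rose from 27.2 ± 2.44 to 38.2 ± 2.92 (SD, n = 3 each), with no overlap between the groups. Its log2 fold change of 0.49 (SE 0.11, adjusted p = 0.00090) lay just under the fold limit of 0.5.

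*PAICS* (ENSG00000128050, chromosome 4, 56435741 to 56464579, plus strand) carries out a carboxylation and then the joining of aspartate, from which ADSL later releases fumarate. It had 2602, 2795 and 2974 counts in sgCtrl and 3798, 3182 and 3153 in sg*NF2*-1, or 177.1 ± 16.5 and 214.5 ± 7.71 CPM (SD, n = 3 each). The groups did not overlap, but sgCtrl replicate 3, at 196.0 CPM, came close to the lowest sg*NF2*-1 library at 206.2 CPM. The log2 fold change was 0.28 (95% interval 0.10 to 0.45, adjusted p = 0.012). This call was lost without sgCtrl replicate 1 (0.23, adjusted p = 0.075) or sgCtrl replicate 2 (0.25, adjusted p = 0.066), and the adjusted p ran from 0.0018 to 0.075 over 13 alternative fits.

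*ADSL* (ENSG00000239900, chromosome 22, 40346500 to 40390463, plus strand), the lyase that serves both IMP synthesis and the AMP branch, had by far the fewest counts, with 76, 54 and 34 in sgCtrl and 83, 58 and 58 in sg*NF2*-1. The groups overlapped, and sgCtrl replicate 1 alone exceeded every sg*NF2*-1 library, at 4.82 CPM against at most 4.72. The log2 fold change was 0.28 (95% interval -0.25 to 0.80, adjusted p = 0.43), and it ran from 0.05 to 0.59 when single libraries were left out, with 0.59 without sgCtrl replicate 1. A difference of the size seen for *PAICS* was thus not detectable at this depth. *ADSL* shares 1344 of its 7111 exonic bases, and 1306 of its 1899 coding bases (68.8%), with AL022238.4, a gene annotated across it on the same strand that itself had at most 2 counts in any library. Reads on shared bases may be left uncounted, so the level of *ADSL* is uncertain, and the part of the sharing in its low count was not tested.

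*ATIC* (ENSG00000138363, chromosome 2, 215311817 to 215349773, plus strand), whose protein carries out the last steps to IMP, had 1525, 1621 and 1524 counts in sgCtrl and 2614, 2512 and 2201 in sg*NF2*-1. Its level was 98.6 ± 1.84 and 155.3 ± 7.13 CPM (SD, n = 3 each). Every sg*NF2*-1 library was far above the narrow range of sgCtrl, and the log2 fold change was 0.65 (SE 0.08, adjusted p = 6.2e-07). Along the route to IMP, 4 of the 6 transcripts therefore rose, those of *GART*, *PFAS*, *PAICS* and *ATIC*.

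Of the IMP dehydrogenase isozymes, which catalyse the first step towards GMP, *IMPDH2* (ENSG00000178035, chromosome 3, 49024325 to 49029408, minus strand) is known as the form of proliferating cells. It had 2546, 2667 and 2561 counts in sgCtrl and 4444, 4317 and 4102 in sg*NF2*-1, or 164.3 ± 3.93 and 273.4 ± 18.6 CPM (SD, n = 3 each). The groups were well apart, and the log2 fold change of 0.73 (SE 0.08, adjusted p = 1.1e-07) was the largest among the 10 enzymes. *IMPDH1* (ENSG00000106348, chromosome 7, 128392277 to 128410252, minus strand) had 893, 877 and 768 counts in sgCtrl and 1193, 1112 and 1065 in sg*NF2*-1. It rose from 53.6 ± 3.03 to 71.5 ± 3.52 CPM (SD, n = 3 each), also without overlap (log2 fold change 0.42, SE 0.09, adjusted p = 0.00068).

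*GMPS* (ENSG00000163655, chromosome 3, 155870536 to 155944026, plus strand) completes GMP with a nitrogen from glutamine. It had 2365, 2499 and 2273 counts in sgCtrl and 2813, 2729 and 2255 in sg*NF2*-1, or 150.7 ± 1.35 and 165.0 ± 10.3 CPM (SD, n = 3 each). The sg*NF2*-1 libraries all lay above sgCtrl in CPM, with replicate 2 the highest at 176.8, but the log2 fold change was 0.13 (95% interval -0.03 to 0.30, adjusted p = 0.22). *ADSS* (ENSG00000035687, chromosome 1, 244408494 to 244452134, minus strand), which commits IMP to AMP, had 990, 998 and 915 counts in sgCtrl and 1207, 1000 and 926 in sg*NF2*-1. At 61.3 ± 1.33 and 66.1 ± 2.13 CPM (SD, n = 3 each), its groups were close without overlapping (log2 fold change 0.11, 95% interval -0.07 to 0.29, adjusted p = 0.34). The upper ends of both intervals lay below the lower ends of the intervals of *IMPDH2* (0.57), *ATIC* (0.49) and *GART* (0.43). Including *GMPS* and *ADSS*, 8 of the 10 enzymes had every sg*NF2*-1 library above every sgCtrl library, compared with 23.2% of all tested genes.

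**Figure D1:**
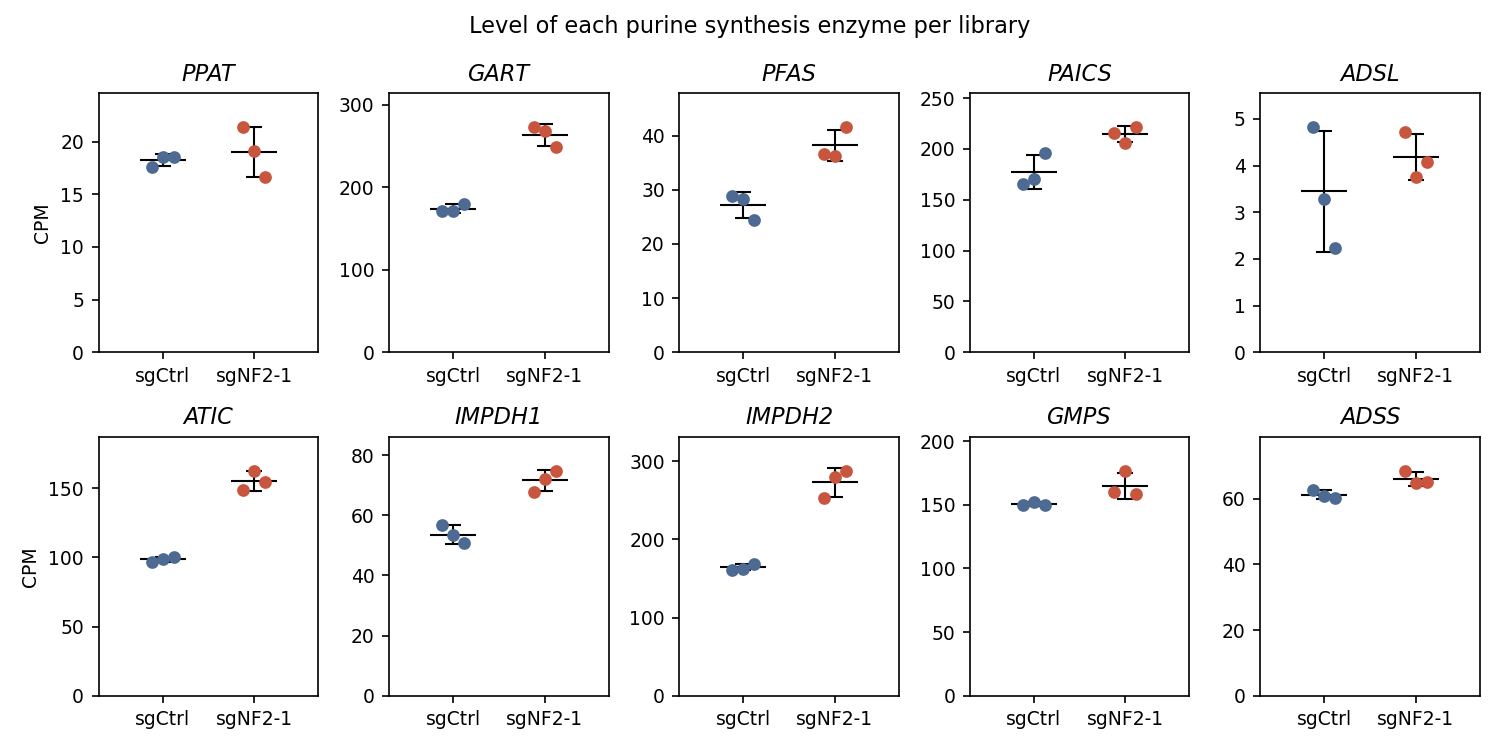
CPM (counts scaled to a common library total after TMM correction, linear axes from 0) of the 10 enzyme genes in the 3 sgCtrl (blue) and 3 sg*NF2*-1 (red) libraries, replicates 1 to 3 from left to right, with bars for the mean and SD. The groups lie far apart for *GART*, *ATIC* and *IMPDH2* and overlap for *PPAT* and *ADSL*.

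Levels can be compared between genes only per length, for which the deposited FPKM values (fragments scaled to exon length and to library depth) were used. The length of a gene is that of all its annotated exons together, for *GART* 7751 bases over 18 transcripts. It can exceed the length of the transcripts expressed, so the order of genes below depends on the annotation. In sgCtrl, *IMPDH2* was the most abundant transcript at 56.1 ± 1.27 FPKM (SD, n = 3). *ATIC*, *PAICS* and *GART* followed at 23.8, 22.3 and 21.3 FPKM, and within this trio neighbours in the order overlapped between libraries. *GMPS* and *ADSS*, at 16.1 and 15.8 FPKM, overlapped each other, and *IMPDH1* stood below them at 13.9 FPKM. *PFAS* and *PPAT* were several times lower, at 3.98 and 3.18 FPKM, and *ADSL* was lowest at 0.460 FPKM. The committed step of the pathway thus had an FPKM well under that of most later steps in both groups.

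In sg*NF2*-1 the order changed in the middle. *IMPDH2* stood at 92.6 ± 6.32 FPKM (SD, n = 3), *ATIC* at 37.1, *GART* at 31.9 and *PAICS* at 26.8 FPKM, with no overlap between neighbours, so that *GART* had passed *PAICS*. *IMPDH1*, *GMPS* and *ADSS* lay together at 18.3, 17.4 and 16.9 FPKM, each overlapping the next. *PFAS*, *PPAT* and *ADSL* kept the last places at 5.54, 3.29 and 0.552 FPKM. On the scale log2(FPKM + 1), which understates the change of low genes, limma called 6 of the 10 enzymes higher and 0 lower, compared with 14.3% of 13038 tested genes higher. These were *IMPDH2* (0.71), *ATIC* (0.62), *GART* (0.56), *PFAS* (0.39), *IMPDH1* (0.38) and *PAICS* (0.26). The FPKM call of *PAICS* (adjusted p = 0.041) was lost in 6 of 9 alternative fits, with adjusted p-values from 0.013 to 0.13.

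Log2 ratios of CPM within each library show whether a pair of enzymes moved unequally. A permutation test of 3 libraries against 3 cannot give a two-sided p below 0.10, so none of the 4 ratios could pass 0.05. The ratio of *IMPDH2* to *IMPDH1* was 1.51, 1.60 and 1.74 in sgCtrl and 1.90, 1.96 and 1.95 in sg*NF2*-1. The groups did not overlap, and the mean difference was 0.32 (exact permutation p = 0.10, adjusted 0.13 over 4 ratios). In FPKM, *IMPDH2* made up 79.0, 80.1 and 81.5% of the summed IMP dehydrogenase transcripts in sgCtrl and 83.1, 83.7 and 83.6% in sg*NF2*-1. The ratio of *IMPDH2* to *ADSS*, the entries to the GMP and AMP branches, was 1.36, 1.42 and 1.48 in sgCtrl and 1.88, 2.11 and 2.15 in sg*NF2*-1, a difference of 0.62 (exact permutation p = 0.10, adjusted 0.13).

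The divergent neighbours *PAICS* and *PPAT* had log2 ratios of 3.23, 3.20 and 3.40 in sgCtrl and 3.34, 3.43 and 3.73 in sg*NF2*-1. These groups overlapped (difference 0.22, exact permutation p = 0.20), so an unequal change of this pair was not shown. The ratio of *PPAT* to *CAD*, the first enzymes of purine and pyrimidine synthesis, was -2.26, -2.24 and -2.21 in sgCtrl and -2.74, -2.97 and -3.16 in sg*NF2*-1. It dropped by 0.72 on average with no overlap (exact permutation p = 0.10, adjusted 0.13).

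**Figure D2:**
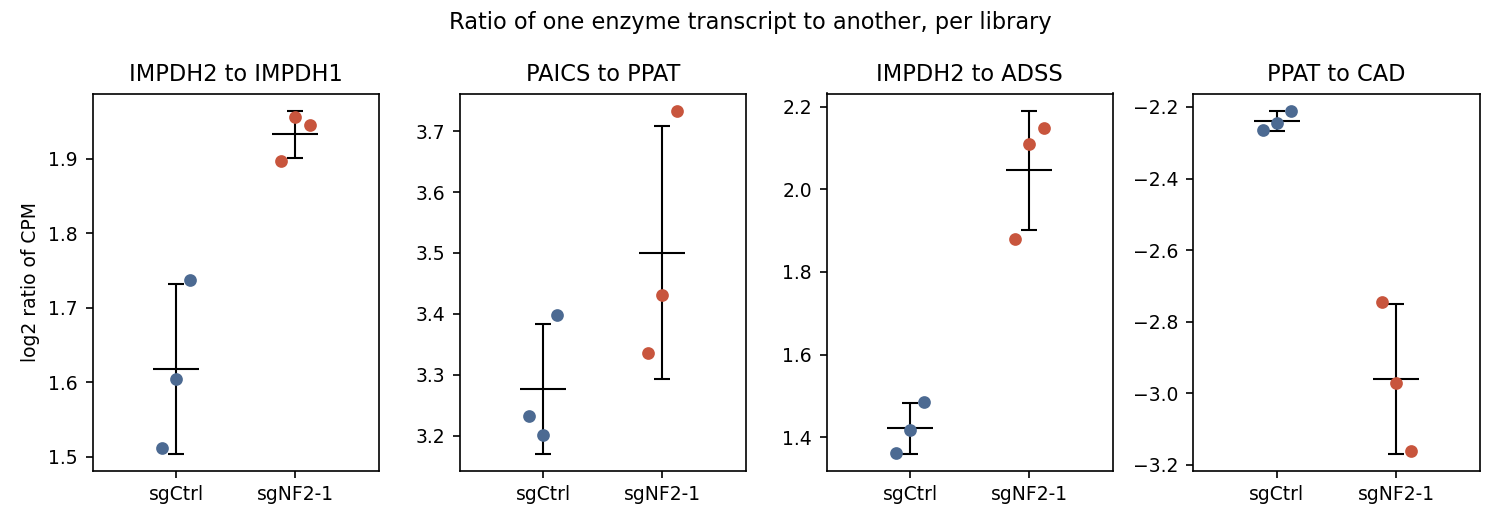
Log2 ratio of the CPM values of the named genes in each library (sgCtrl blue, sg*NF2*-1 red, replicates 1 to 3 from left to right), with bars for the mean and SD and an axis of its own in each panel, none starting at 0. The groups are apart for *IMPDH2* to *IMPDH1*, *IMPDH2* to *ADSS* and *PPAT* to *CAD*, and overlap for *PAICS* to *PPAT*.

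The parallel pathway of pyrimidine synthesis has 3 genes. *CAD*, which carries its first activities, had 1330, 1441 and 1305 counts in sgCtrl and 2519, 2315 and 2120 in sg*NF2*-1 (log2 fold change 0.78, SE 0.08, adjusted p = 3.9e-08). *DHODH*, its mitochondrial dehydrogenase, was higher by 0.51 (adjusted p = 0.0014), and *UMPS*, which completes UMP, had a log2 fold change of 0.21 (adjusted p = 0.095). The study is concerned with *CAD* and *DHODH* in these samples, so they are no independent yardstick. The log2 fold change of *CAD* had an interval of 0.61 to 0.94, overlapping those of *IMPDH2* (0.57 to 0.90), *ATIC* (0.49 to 0.82) and *GART* (0.43 to 0.76) and lying above that of *PPAT* (-0.19 to 0.32).

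Supply of PRPP, the sugar phosphate on which the ring is built, was represented by 4 tested genes. Of these, 0 were higher and 0 lower (median log2 fold change 0.08). For comparison with the counts in this paragraph, 17.7% of all tested genes were higher and 16.6% lower. *PRPS2* was at -0.24 (adjusted p = 0.089) and *PRPS1* at 0.12 (adjusted p = 0.35). Of 8 tested genes for the formyl folate that GART and ATIC consume, 3 were higher (median 0.15), and these were the mitochondrial enzymes *MTHFD1L*, *MTHFD2* and *SHMT2*. *MTHFD1L*, which releases formate in the mitochondrion, had 1113, 1169 and 1094 counts in sgCtrl and 2444, 2257 and 1985 in sg*NF2*-1 (log2 fold change 0.99, adjusted p = 8.2e-10). *MTHFD2* was higher by 0.81 (adjusted p = 6.1e-08) and *SHMT2*, which takes the one-carbon unit from serine, by 0.73 (adjusted p = 8.0e-07). *MTHFD2L*, a mitochondrial relative of *MTHFD2*, was at -0.02 (adjusted p = 0.93), and the cytosolic enzymes *MTHFD1* and *SHMT1* were at 0.07 and -0.07 (adjusted p = 0.56 and 0.60). *MTHFD2* shares 33.2% of its exonic bases with other genes and *SHMT2* 9.51%.

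Salvage enzymes make nucleotides from free bases and nucleosides. Of 8 listed, 7 were tested, with 2 higher and 0 lower (median 0.11), compared with 17.7% of all tested genes higher and 16.6% lower. *ADK*, adenosine kinase, was higher by 0.35 (adjusted p = 0.0065, from 0.00020 to 0.061 over the alternatives and lost without sgCtrl replicate 2) and *PNP*, purine nucleoside phosphorylase, by 0.34 (adjusted p = 0.043, from 0.017 to 0.24, and lost in 5 of 13 alternatives, namely with library totals, with DESeq2, and without sgCtrl replicate 1 or sg*NF2*-1 replicates 2 or 3). *HPRT1* and *APRT*, which salvage hypoxanthine and guanine and adenine, were at -0.04 and 0.11 (adjusted p = 0.77 and 0.42). *MTAP* (chromosome 9, 21802543 to 21937651), which feeds adenine from methylthioadenosine to salvage, had 0 counts in 6 of the 6 libraries, which allows at most 0.172 to 0.203 CPM on the unscaled total by the limit of 3 counts per library, for counting error only. *CDKN2A* and *CDKN2B*, its neighbours on chromosome 9, looked up after the value of *MTAP* was seen, also had 0 counts throughout.

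Kinases that phosphorylate purine nucleotides further were mixed, with 3 of 11 higher and 2 lower (median 0.31). The shares of all tested genes were 17.7% higher and 16.6% lower. *AK6* (0.47) and *NME1* (0.33) were among those higher, with adjusted p-values of 0.0045 and 0.010. *AK4* (-0.71, adjusted p = 9.8e-07) and *AK1* (-0.55, adjusted p = 0.037) were lower. The call of *AK1*, which had 64 to 101 counts per library, was lost in 6 of 13 alternatives (adjusted p from 0.028 to 0.14), namely with no filter, with DESeq2, and without sgCtrl replicates 1 or 3 or sg*NF2*-1 replicates 1 or 2. That of *AK6* was lost without sgCtrl replicate 2, and that of *NME1* without sgCtrl replicate 2 or sg*NF2*-1 replicate 3. *AK1*, *AK6* and *NME1* share 33.5, 24.5 and 18.6% of their exonic bases with other genes, *NME1* with a read-through gene into *NME2*, so that their levels are uncertain.

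Among 12 tested genes of interconversion and breakdown, 2 were higher and 2 lower (median -0.12). These counts are close to the shares of all tested genes, 17.7% higher and 16.6% lower. *ITPA*, which removes inosine triphosphate, was higher by 0.44 (adjusted p = 0.0014) and *GMPR2*, which turns GMP back into IMP, by 0.35 (adjusted p = 0.0027). *AMPD3*, an AMP deaminase, was lower (-0.69, adjusted p = 0.0022), as was *SAMHD1*, which degrades deoxynucleotides (-0.47, adjusted p = 0.00013). *ADSSL1*, the muscle form of ADSS, had 33 to 70 counts per library and overlapping groups. *GDA*, guanine deaminase, had 0 counts in every library, with the same upper limits as *MTAP*. Of 4 tested purine transporters, 0 were called, the highest being *SLC29A2* at 1.13 with 5 to 27 counts per library (adjusted p = 0.081).

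**Figure D3:**
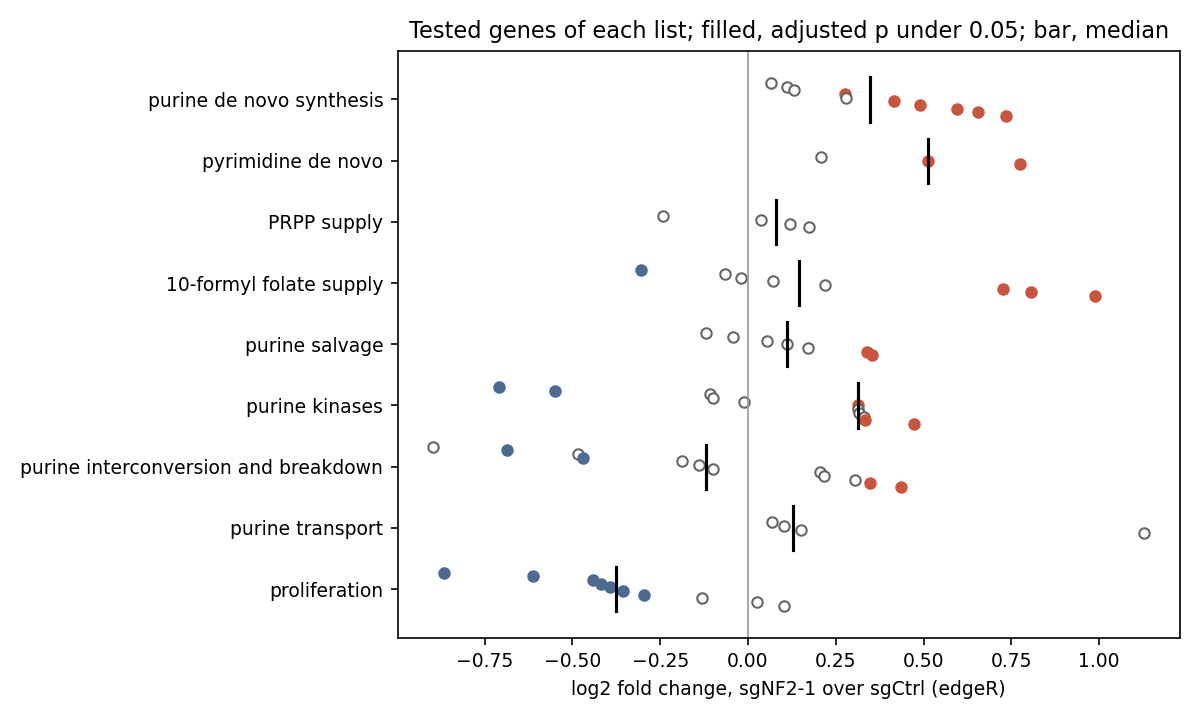
Log2 fold change, sg*NF2*-1 over sgCtrl from edgeR, of the tested genes of 9 lists, 1 point per gene, filled at an adjusted p under 0.05 (red higher, blue lower), open otherwise, with a bar at the list's median. The medians are 0.35 for purine synthesis and -0.37 for the proliferation genes, and the called folate genes *SHMT2*, *MTHFD2* and *MTHFD1L* lie at 0.73 to 0.99.

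The enzymes were set beside 7 genes of transcription factors and cofactors. *MYC* had 2534, 2597 and 2420 counts in sgCtrl and 5891, 5275 and 4677 in sg*NF2*-1, a log2 fold change of 1.07 (adjusted p = 1.1e-10) that exceeded that of each purine enzyme. Its partner *MAX* was higher by 0.41 (adjusted p = 0.0016), and *ATF4*, a regulator of amino acid and mitochondrial folate genes, by 0.56 (adjusted p = 1.4e-05). *NRF1* was at 0.30 (adjusted p = 0.056, under 0.05 without sgCtrl replicate 3 and without sg*NF2*-1 replicate 3). Of the Hippo pathway's effectors, *YAP1* was at -0.06 (adjusted p = 0.60) and *TEAD1* at -0.20 (adjusted p = 0.064, and 0.032 with replicate number as a block). *WWTR1*, which encodes TAZ, was lower (-0.84, adjusted p = 1.1e-08), with a mean of 21.8 FPKM in sgCtrl and 12.1 in sg*NF2*-1. The study instead describes TAZ as unchanged after loss of *NF2*, from FPKM and protein values of H2452 cells, and the reason for this difference was not tested. The values of these 7 genes are transcript levels, which do not measure the activity of the proteins. Their part in the enzymes' differences was not tested.

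Proliferation genes moved the other way. Of 10, 0 were higher and 7 lower in sg*NF2*-1 (median log2 fold change -0.37). Over all tested genes, 17.7% were higher and 16.6% lower. *PCNA*, the DNA polymerase clamp, had 2526, 2423 and 2397 counts in sgCtrl and 1478, 1251 and 1293 in sg*NF2*-1 (-0.86, adjusted p = 1.2e-08). *RRM2*, the ribonucleotide reductase subunit that turns ribonucleotides into deoxynucleotides, was lower by a log2 fold change of -0.61 (adjusted p = 1.1e-05), and *CDK1* of -0.44 (adjusted p = 0.00057). *MCM2*, *CCNB1* and *BIRC5* did not pass the test. The part of the proliferation genes in the results above was not tested. These transcript levels do not measure how fast the cells grow. The study itself describes proliferation as enhanced after loss of *NF2*.

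Each enzyme gene was also compared with the 20 tested genes nearest to it on its chromosome. Over all tested genes, 17.7% were called higher and 16.6% lower. Around *GART*, 0 of the 20 neighbours were called higher and 9 lower, with a median log2 fold change of -0.37, while *GART* itself was at 0.60. Neighbour medians of *IMPDH2*, *ATIC*, *PFAS*, *PAICS* and *IMPDH1* lay between -0.07 and 0.06, with 1 to 4 neighbours called higher and 2 to 5 lower. *ADSL* and *ADSS*, which were not called themselves, had neighbours with medians of 0.21 and 0.13, of which 10 and 7 were higher and 2 and 0 lower. *PPAT* and *PAICS* have largely the same neighbours, with a median of 0.02.

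**Figure D4:**
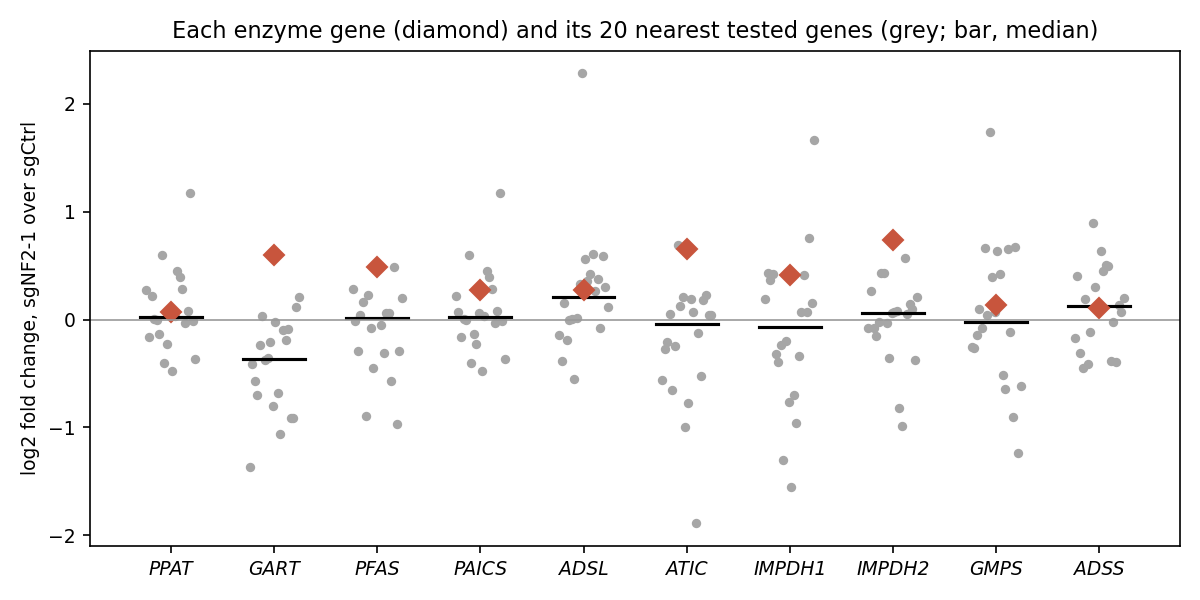
Log2 fold change, sg*NF2*-1 over sgCtrl, of each enzyme gene (red diamond) and of its 20 nearest tested genes (grey points, spread sideways for visibility), with a bar at the neighbours' median. *GART* at 0.60 lies above all its neighbours, whose median is -0.37, and *ADSL* and *ADSS* lie near the medians of theirs.

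Apart from *ADSL*, the enzymes share little annotated sequence with other genes. At least 95.7% of their exonic bases belonged to no other gene on either strand, and their annotated processed pseudogenes had at most 12 counts in any library.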

How the data were processed

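The members and lists were chosen with earlier results of these data known. RNA of 6 libraries was sequenced by the authors as 150-base paired-end reads on a NovaSeq platform after library preparation with a NEBNext Ultra kit. The authors deposited, for each gene, the raw read count and an FPKM value. The submitters' processing notes name HISAT2, StringTie 1.3.3b, featureCounts 1.5.0-p3 and hg38. Whether counting used strand is not given in the sources used here. The titles of the samples gave the group and the replicate number. All 58735 gene identifiers and their coordinates match GENCODE 29 (GRCh38).

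Genes with low counts were removed by filterByExpr at its minimum count of 10 and minimum total of 15. Counts were normalized by TMM and tested with edgeR 4.0.16's quasi-likelihood test in R 4.3.3. FPKM values were tested with limma 3.58.1 (eBayes with trend) on log2(FPKM + 1) where the mean FPKM was 0.5 or more. Adjusted p-values are Benjamini-Hochberg values over every gene tested. The 4 ratios were compared by two-sided exact permutation tests. Named genes are the 10 enzymes, *NF2*, the pyrimidine genes, the regulators, up to 3 genes with the largest and up to 3 with the smallest log2 fold change among the called genes of each other list, listed genes at 0 counts, and overlapping or head to head genes within 1 kb. *PRPS1*, *PRPS2*, *MTHFD1*, *MTHFD2L*, *SHMT1*, *HPRT1*, *APRT*, *ADSSL1*, *SLC29A2*, *MCM2*, *CCNB1*, *BIRC5*, *KRT5*, *LRRN4*, *CDKN2A* and *CDKN2B* were named after their values were seen. Some results that this rule selects are not reported here. Alternatives were DESeq2 1.42.0, other size factors, other filters, protein-coding genes only, a replicate block, a pseudocount of 0.1, FPKM in place of CPM for ratios, and leaving out each library. The scripts were tested on simulated counts. Total counts per library were 14782423 to 17416463, and replicates differed by more than counting error.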

Additional observations from a re-analysis of the deposited data

How the results depend on the processing

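The number of enzymes called higher at an adjusted p under 0.05 was 6 in the 7 alternatives with all libraries, and 5 to 6 when single libraries were left out, *PAICS* being the call lost. With the fold limit it was 3 in 6 of those 7 alternatives, 4 with no filter, where *PFAS* passed, and 3 to 5 when single libraries were left out, with 5 without sgCtrl replicate 1, where *PFAS* (log2 fold change 0.53) and *ADSL* (0.59) came in. The number on the FPKM scale was 5 to 6, and 0 enzymes were lower in any setting. The direction of *PPAT* turned without sg*NF2*-1 replicate 1, with a range from -0.023 to 0.16 over the left-out libraries in edgeR and from -0.032 to 0.11 on the log2(FPKM + 1) scale. No other gene for which the alternatives were run changed direction. They were not run for *SON* or for the genes named after their values were seen. Between libraries of the same replicate number, the correlations of the deviations from the group means were -0.04, 0.09 and 0.07. They were not compared with those between different numbers, so a pairing was neither shown nor excluded. With the number as a replicate block, 6 enzymes were higher, and 2698 genes were higher and 2501 lower instead of 2515 and 2351. Among the genes for which the alternatives were run, the block changed the call of *TEAD1* alone. With library totals in place of TMM, 2232 genes were higher and 2529 lower, and the median of all tested genes was -0.03. *KRT18* lost its call without sgCtrl replicates 1 or 2 or sg*NF2*-1 replicate 3. *TEAD1* passed with library totals too (adjusted p = 0.045). Ratios without 1 library cannot give a p below 0.20. Each kept its direction with FPKM and without any single library. Low counts limit *ADSL* most.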
